A study of Mus musculus with 6 samples.

Results

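The Max network is a family of transcription factors that pair with one another and bind the DNA word CACGTG, the E-box. It was followed here in 10 genes, chosen by symbol, which are Myc, Mycn, Mycl, Max, Mxd1, Mxd3, Mxd4, Mxi1, Mnt and Mlx. Each had 1 probe set with a single gene symbol on the array, and all 10 of these genes, out of 19938 named genes on the array, passed the filter on dim probe sets. The values came from 6 Affymetrix mouse gene arrays of cardiomyocytes sorted from embryonic hearts at E12.5. The 3 Yap HET and 3 Yap KO arrays came from crosses of TNTCre, Yap flox and R26 mTmG mice. All embryos carried TNTCre, a Cre recombinase that the cardiac troponin T promoter drives in cardiomyocytes, and the mTmG reporter, by which a cell turns green after Cre has acted, and green cells were sorted. The groups differ in the floxed Yap gene, heterozygous in Yap HET and knocked out in Yap KO, so the comparison group has lost Yap in part and is not wild type. The sources used here do not say which embryos were littermates or whether hearts were combined on an array. Arrays are named below by group and replicate, as HET 1 or KO 2.

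Myc, Mycn and Mycl proteins bind DNA as dimers with Max and activate genes for ribosome assembly, nucleotide synthesis and cell growth. The Mxd proteins, Mxi1 and Mnt also pair with Max and recruit repressor complexes to the same sites, so the network sets activation against repression. Mlx is a parallel partner, which pairs with the glucose-sensing Mondo proteins and with some Mxd proteins. In the mouse embryo, Mycn is known to be needed for the growth of the ventricular wall.

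Promoter sequence was available from RefSeq (GRCm38.p6) for 9 of the genes, all but Myc, as 11 windows reaching from 250 bases before to 50 bases after a transcription start. The E-box CACGTG, which reads the same on both strands, was present in 4 of the 11 windows, those of Max, Mlx, Mnt and Mxd4. Of all 32851 promoter windows of this length, whatever their base composition, 7.15% held it, and the members' windows had a GC content of 55.0% to 76.7%. These are shown because the E-box is the word that the network's own proteins bind. Each is written 5′ to 3′ on the strand of the gene with CACGTG in capitals and 20 bases on either side.
Max, minus strand, chr12:76962226-76962271: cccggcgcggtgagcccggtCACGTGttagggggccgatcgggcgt
Mlx, plus strand, chr11:101087230-101087275: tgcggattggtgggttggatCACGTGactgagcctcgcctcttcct
Mnt, plus strand, chr11:74830781-74830826: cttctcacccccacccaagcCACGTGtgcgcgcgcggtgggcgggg
Mxd4, minus strand, chr5:34187904-34187949: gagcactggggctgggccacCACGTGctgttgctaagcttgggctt
The TEAD word GGAATG, searched on both strands, was in 0 of the 11 windows and in 14.7% of all windows, and the E2F word TTTCCCGC, also on both strands, was in 0 and in 1.07%. Mycn held 2 copies of TTTGGCGC, another form of the E2F word, which was searched on both strands only after the Mycn window had been read. It occurs in 0.514% of all windows. The stretch of Mycn is shown because Mycn is the member that differed most between the groups, with TTTGGCGC in capitals.
Mycn, minus strand, chr12:12941977-12942039: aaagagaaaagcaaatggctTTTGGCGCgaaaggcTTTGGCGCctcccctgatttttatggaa
A matching word is a description of the sequence, and no binding was measured.

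Intensities are on a linear scale, and each probe set has its own response, so levels of different genes are not set against each other. Changes are log2 of Yap KO minus Yap HET with a standard error (SE) from a limma fit over the 13632 genes that passed the filter, an intensity of 85.7. Means carry the SD of 3 arrays. The targeted gene, Yap1, read 886, 927 and 871 in Yap HET cells, against 103, 84.7 and 86.6 in Yap KO cells, so its level fitted the label on all 6 arrays. The sources used here do not place its probe set relative to the deleted exons. The members had been proposed with the contrast of Yap KO and Yap HET in view, so their changes are given as a description, with no p-value. Past the threshold of the fit, a Benjamini-Hochberg adjusted p of 0.05, were 3 of the 10 members, 2 of them higher and 1 lower in Yap KO. Of all genes tested, 9.93% were past it, 5.16% higher and 4.76% lower, and nothing is read from the members' count.

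The Myc paralogs differed between the groups in opposite directions. Mycn, the N-Myc gene, read 824, 742 and 753 in Yap HET and 562, 541 and 558 in Yap KO. All 3 Yap KO values of Mycn lay far below the lowest Yap HET value, and they were closer to each other than the Yap HET values were. Its mean was 773 ± 44.7 (SD, n = 3) in Yap HET and 554 ± 11.3 in Yap KO, 1.39-fold lower, with a log2 change of -0.48 ± 0.06 (SE). It was the 128th lowest change among the 13632 genes. Myc, the c-Myc gene, read 476, 461 and 473 in Yap HET and 594, 563 and 582 in Yap KO. The groups did not overlap, and both were tight. Its mean was 470 ± 8.24 in Yap HET and 579 ± 15.7 in Yap KO, 1.23-fold higher, with a log2 change of 0.30 ± 0.05. Since these are bulk samples, fewer cells with a transcript and less of it per cell cannot be told apart.

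Set against each other within each array, the log2 ratio of Mycn to Myc lay between -0.05 and 0.07 of the Yap HET mean on the Yap HET arrays and between -0.80 and -0.77 on the Yap KO arrays. The ratio was thus 1.72-fold lower in Yap KO, a log2 difference of -0.78 ± 0.04 (SE over the arrays, n = 3 against 3). The ratio does not depend on the scaling of the arrays. Because the members were proposed with the contrast of Yap KO and Yap HET in view, it only describes an unequal change. Mycl, the L-Myc gene, was the dimmest member, at 1.21 times the filter level. It read 107, 103 and 124 in Yap HET and 93.0, 109 and 88.1 in Yap KO. The groups overlapped, and the log2 change was -0.20 ± 0.10, with a 95% interval of -0.43 to 0.02. The filter level is a percentile of probe set intensity and not a measured background, and no detection call was used. Whether the Mycl signal stood above background was not tested, and if it did not, a change of Mycl may be understated.

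**Figure D1:**
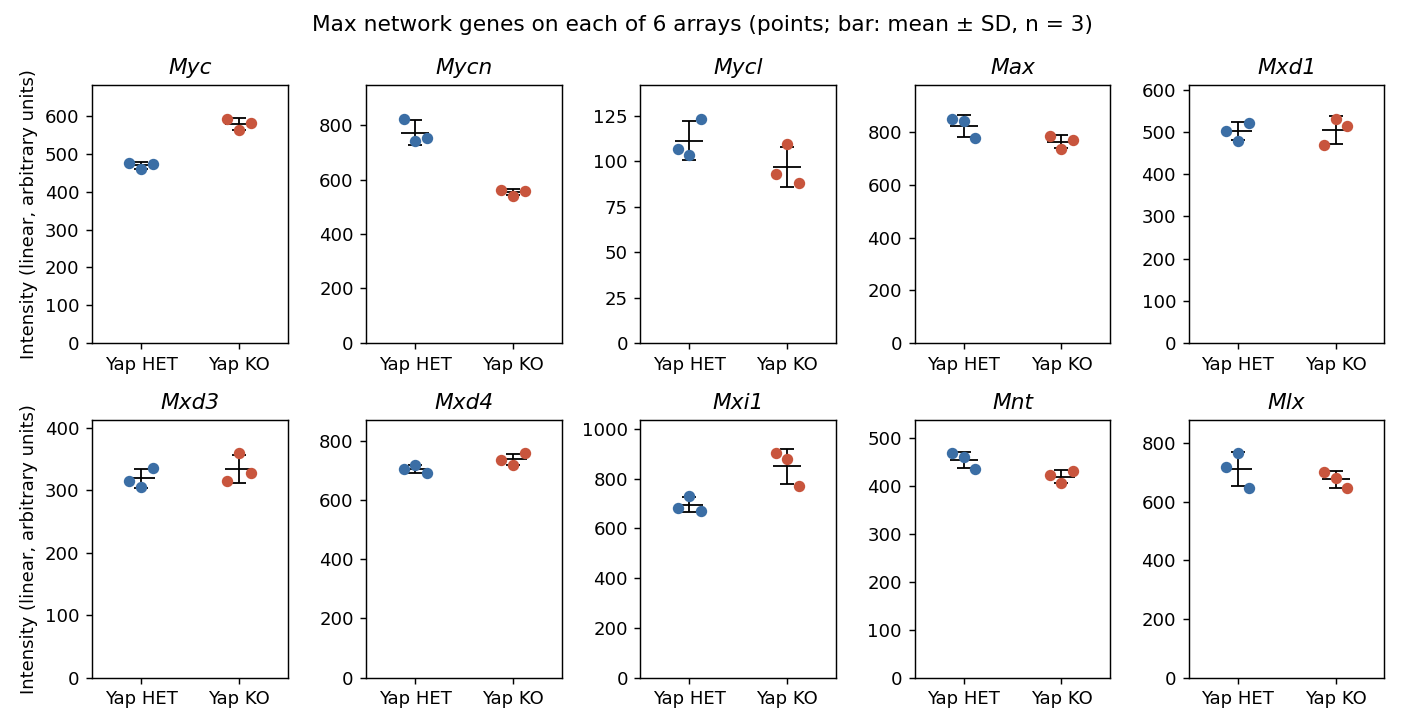
Intensity (linear, arbitrary units, axis from 0) of each of the 10 genes on the 3 Yap HET and 3 Yap KO arrays, with the mean and SD of each group. Mycn lies lower and Myc and Mxi1 lie higher on all 3 Yap KO arrays, while Mycl, Max, Mxd1, Mxd3 and Mlx overlap between the groups.

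Max, the shared partner through which Myc proteins and their antagonists bind DNA, read 853, 844 and 777 in Yap HET and 788, 737 and 770 in Yap KO. HET 3 lay within the range of the Yap KO arrays, so the groups overlapped. The log2 change of Max was -0.11 ± 0.06 and its 95% interval -0.24 to 0.03.

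Among the repressors that pair with Max, Mxi1 was the 1 past the threshold. Mxi1, also known as Mad2 or Mxd2, read 683, 730 and 672 in Yap HET and 902, 878 and 771 in Yap KO. The groups did not overlap, and KO 3 was the lowest of its group. Its mean was 695 ± 30.8 in Yap HET and 850 ± 69.9 in Yap KO, 1.22-fold higher, with a log2 change of 0.29 ± 0.07. Mxi1 was past the threshold by little. Leaving out HET 1, HET 3, KO 1 or KO 2 took it below the threshold, at log2 changes of 0.28, 0.26, 0.24 and 0.26, and so did testing all genes with no filter.

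The other repressors were not past the threshold. Mxd1, the first described Mad protein gene, read 504, 480 and 523 in Yap HET and 469, 532 and 515 in Yap KO, and the groups overlapped. Its log2 change of 0.01 ± 0.06 had a 95% interval of -0.14 to 0.16. Mxd3, a Mad gene known for its expression in dividing cells, read 315, 306 and 336 in Yap HET and 315, 359 and 328 in Yap KO, a log2 change of 0.06 ± 0.07 with an interval of -0.09 to 0.22. KO 2 was the highest array and the groups again overlapped.

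Mxd4 read 706, 719 and 693 in Yap HET and 736, 719 and 758 in Yap KO. Here the groups touched, at 719 in both, and the log2 change was 0.06 ± 0.05 with an interval of -0.05 to 0.18. Mnt, the most widely expressed Max-binding repressor, read 467, 459 and 434 in Yap HET and 421, 405 and 431 in Yap KO. All 3 Yap KO values of Mnt were below all Yap HET values by a narrow margin. The log2 change of Mnt was -0.11 ± 0.05, with an interval of -0.24 to 0.01. In all, the groups of 5 members did not overlap, counting Mxd4, and 33.9% of all genes tested had groups that did not overlap.

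Mlx, the partner of the Mondo proteins, read 719, 764 and 648 in Yap HET and 700, 682 and 645 in Yap KO. The Yap HET values spread widely and spanned most of the Yap KO values. Its log2 change was -0.07 ± 0.07, with an interval of -0.24 to 0.10. Over the 10 members the SD within a group ranged from 0.0329 (Mxd4) to 0.149 (Mycl) on the log2 scale, where the median of all genes was 0.0804. The members' median log2 change was -0.03, and that of all genes tested was -0.017.

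**Figure D2:**
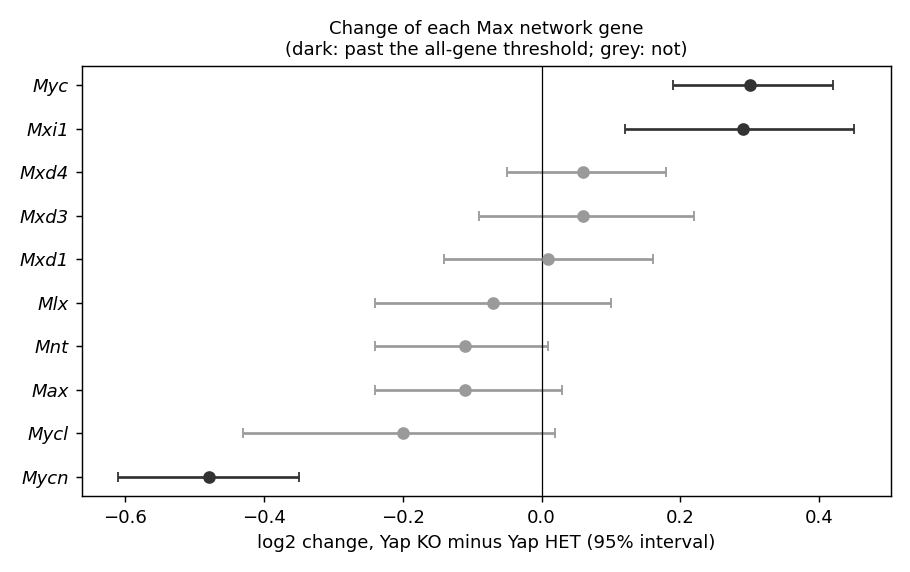
Log2 change of each member, Yap KO minus Yap HET, with its 95% interval from the limma fit, in order of size. Myc (0.30), Mxi1 (0.29) and Mycn (-0.48) have intervals that leave out 0, and the intervals of the other 7 members include it. The intervals are not adjusted for the number of genes. Because the members were proposed with the contrast of Yap KO and Yap HET in view, the intervals are a description and no test.

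Mycn and Myc were in the same direction whichever array was left out. The log2 change of Mycn then ranged from -0.51 to -0.43 and that of Myc from 0.28 to 0.32, and both were past the threshold in all 6 cases. Such fits reuse the arrays with which the members were proposed, so they describe stability and add no independent support. Mxi1 ranged from 0.24 to 0.36. Under the 9 other settings, the changes ranged from -0.48 to -0.46 for Mycn, from 0.29 to 0.32 for Myc and from 0.28 to 0.31 for Mxi1.

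**Figure D3:**
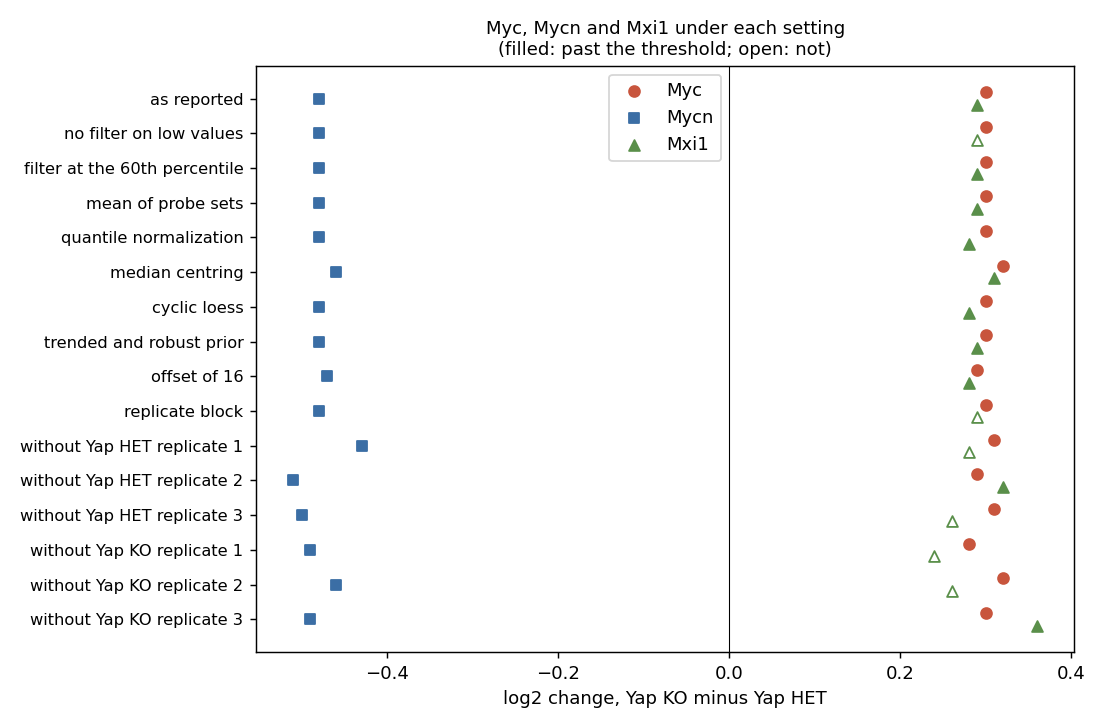
Log2 change of Myc, Mycn and Mxi1, Yap KO minus Yap HET, as reported and under each of 15 other settings, filled where past the adjusted threshold. Mycn stays between -0.51 and -0.43 and Myc between 0.28 and 0.32, while Mxi1 has 6 open symbols.

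The genes whose log2 intensities over the 6 arrays were most like those of Mycn were Mdc1 and Exo1, which act in the DNA damage response, the transcription factor gene Tcf4, the BH3-only gene Bid and the scaffold gene Caskin2. Pearson's r was between 0.995 (Caskin2) and 0.998 (Mdc1). For Myc they were Ankrd45, the reticulon gene Rtn4, the kinase gene Stk32a, the receptor signalling inhibitor gene Spry2 and Mob4, with r between 0.992 (Mob4) and 0.995 (Ankrd45). These are descriptions over 6 arrays in 2 groups, in which any gene that differs between the groups with little spread comes close. Spry2 read 629, 625 and 628 in Yap HET and 752, 709 and 747 in Yap KO, and Exo1 had means of 364 ± 11.0 and 281 ± 5.03. Pvt1, the noncoding gene that follows Myc in the annotation and was chosen after its values were seen, was near the filter level, with 84.8 ± 7.73 in Yap HET and 94.4 ± 6.06 in Yap KO (log2 change 0.16 ± 0.08).

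Myc is also an immediate early gene, one of those induced within minutes by growth factors or by tissue dissociation. Fos, Egr1 and Nr4a1 were lower in Yap KO, with log2 changes of -0.38 ± 0.06, -0.27 ± 0.05 and -0.56 ± 0.06 (limma adjusted p = 0.00913, 0.0211 and 0.00283). They were chosen after their values were seen, so their shared direction is no result. Other immediate early genes are not given here. Whether a difference in handling had a part in the level of Myc was not tested.

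The gene lists here and below were chosen with earlier results of these data known, so their shares beside all genes are descriptions. Outside the 10 members, a list of related genes, only some of them in the network, showed no called change. Of 12 genes, namely Mga, the Mondo genes Mlxip and Mlxipl, other E-box factors and the Mondo targets Txnip and Arrdc4, 0 were past the threshold in limma, and 0 had an unadjusted p under 0.05, a level that 13.9% of all genes tested reached on the higher side and 14.4% on the lower. The smallest p belonged to Mlxip, which encodes MondoA, with 617 ± 17.5 in Yap HET and 561 ± 40.2 in Yap KO (log2 change -0.14 ± 0.06, limma adjusted p = 0.202). Srebf2 and Arrdc4 followed, at -0.06 ± 0.05 and -0.11 ± 0.09. The median log2 change of the 12 was -0.04. Of 21 tested genes for Myc cofactors, the proteins through which Myc and its antagonists act on chromatin, 0 were past the threshold in limma, while 1 was higher and 3 were lower at an unadjusted p under 0.05. The histone acetyltransferase gene Kat2a (-0.20 ± 0.05), the helicase gene Ruvbl2 (-0.20 ± 0.06) and the remodeller gene Bptf (-0.15 ± 0.05) had the smallest p-values (limma adjusted p = 0.055, 0.0694 and 0.0974), and the median was -0.05.

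Genes that set the stability of Myc proteins included several falls. Of 15 tested, 4 fell and 0 rose past the threshold, 26.7% lower against 4.76% of all genes. Pim1, a kinase that phosphorylates and stabilises Myc in human and mouse cells, fell from 792 ± 29.8 to 601 ± 60.5 (log2 change -0.40 ± 0.08, limma adjusted p = 0.0215). Its relative Pim3 fell by 0.28 ± 0.05 on the log2 scale. Skp2, a ubiquitin ligase subunit that acts on Myc and on cell-cycle inhibitors, fell by 0.30 ± 0.07 on the log2 scale, and Plk1, the mitotic kinase, fell by 0.22 ± 0.06 (limma adjusted p = 0.0343 and 0.0492). The list median was -0.07. Of these calls 0 were left when HET 1 or HET 3 was omitted, 2 when HET 2 was, and 1 when KO 2 or KO 3 was.

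Genes listed as activated by Myc proteins were lower in Yap KO more often than higher. Their lists, too, were chosen with earlier results known, so nothing is concluded from the shares. Of 36 growth and metabolism genes tested, 12 fell and 1 rose, 33.3% lower against 4.76% of all genes, with a median log2 change of -0.12. The largest fall was in the glutamine transporter gene Slc1a5, from 771 ± 47.8 to 551 ± 9.54 (log2 change -0.48 ± 0.06, limma adjusted p = 0.00426). The one-carbon enzyme genes Mthfd1 (716 ± 6.92 to 546 ± 28.3, -0.39 ± 0.05) and Shmt1 (-0.29 ± 0.05), the nucleotide pool gene Dctpp1 (-0.32 ± 0.05) and Slc7a5, which encodes a carrier of large amino acids (-0.26 ± 0.05), were also lower past the threshold. The 1 gene that rose was Hk2, a hexokinase gene that low oxygen also induces (887 ± 21.2 to 1243 ± 172, log2 change 0.48 ± 0.10, limma adjusted p = 0.0236). Binding of these genes by Myc or Mycn in these cells was not measured.

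Among the 12 falls were 6 genes of de novo nucleotide synthesis, picked out after their values were seen, so their shared direction is no result. Ppat, which catalyses the committed step of purine synthesis, fell from 716 ± 24.1 to 566 ± 19.5 (log2 change -0.34 ± 0.05, limma adjusted p = 0.00988). The later purine genes Gart (-0.20 ± 0.05), Paics (-0.21 ± 0.05) and Atic (-0.26 ± 0.05) and the pyrimidine genes Cad (-0.26 ± 0.06) and Umps (-0.19 ± 0.05) also fell, with limma adjusted p-values of at most 0.0434. In the whole growth and metabolism list, the count of 12 falls dropped to 4 when HET 1 or KO 3 was omitted, to 3 when KO 2 was, and to 7 when HET 2, HET 3 or KO 1 was. The call of Hk2 was lost when HET 1, HET 3, KO 1 or KO 2 was omitted.

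Nucleolar and ribosome biogenesis genes, which build the machinery of translation, included falls and no rises. Of 38 tested, 6 fell and 0 rose, 15.8% lower against 4.76% of all genes, and before adjustment the limma p was under 0.05 for 15 lower genes (39.5%) and 0 higher ones, against 14.4% and 13.9% of all genes. The median log2 change was -0.09. Rrp9, a component of the particle that processes ribosomal RNA, fell from 391 ± 11.1 to 314 ± 15.3 (log2 change -0.32 ± 0.06, limma adjusted p = 0.0145). Nolc1, a nucleolar phosphoprotein gene, fell from 1294 ± 31.8 to 1052 ± 29.6 (-0.30 ± 0.05, limma adjusted p = 0.0123). Tcof1, the treacle gene, and Rrp12 fell by 0.28 ± 0.06 and 0.27 ± 0.06 on the log2 scale, and Nop2 and Nle1 fell by 0.22 ± 0.05 and 0.20 ± 0.05. The count of 6 dropped to 1 when HET 1 or KO 3 was omitted, to 3 when HET 2 or KO 1 was, and to 0 when KO 2 was.

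Genes listed as repressed by Myc had a median log2 change of 0.12. Of 19 tested, 3 rose and 1 fell, together 21.1% against 9.93% of all genes. The fall was 5.26% of the list against 4.76% of all genes, of which 5.16% rose. At an unadjusted limma p under 0.05, 7 of the 19 were higher and 2 were lower, against 13.9% and 14.4% of all genes. Pdgfrb, a receptor of the platelet-derived growth factors, rose from 279 ± 20.7 to 464 ± 44.3 (log2 change 0.73 ± 0.08, limma adjusted p = 0.00341). The cyclin G2 gene Ccng2 rose by 0.50 ± 0.07 and the hypoxia-induced gene Ndrg1 by 0.48 ± 0.08, and the growth arrest gene Gas1 fell from 1030 ± 20.7 to 833 ± 62.4 (-0.31 ± 0.06, limma adjusted p = 0.0254). There were 5 rises when KO 1 was omitted, and the call of Gas1 was lost when HET 1, HET 3, KO 1 or KO 2 was. Pdgfrb also marks pericytes, and the list holds the collagen genes Col1a1 and Col1a2, which mark mesenchyme.

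**Figure D4:**
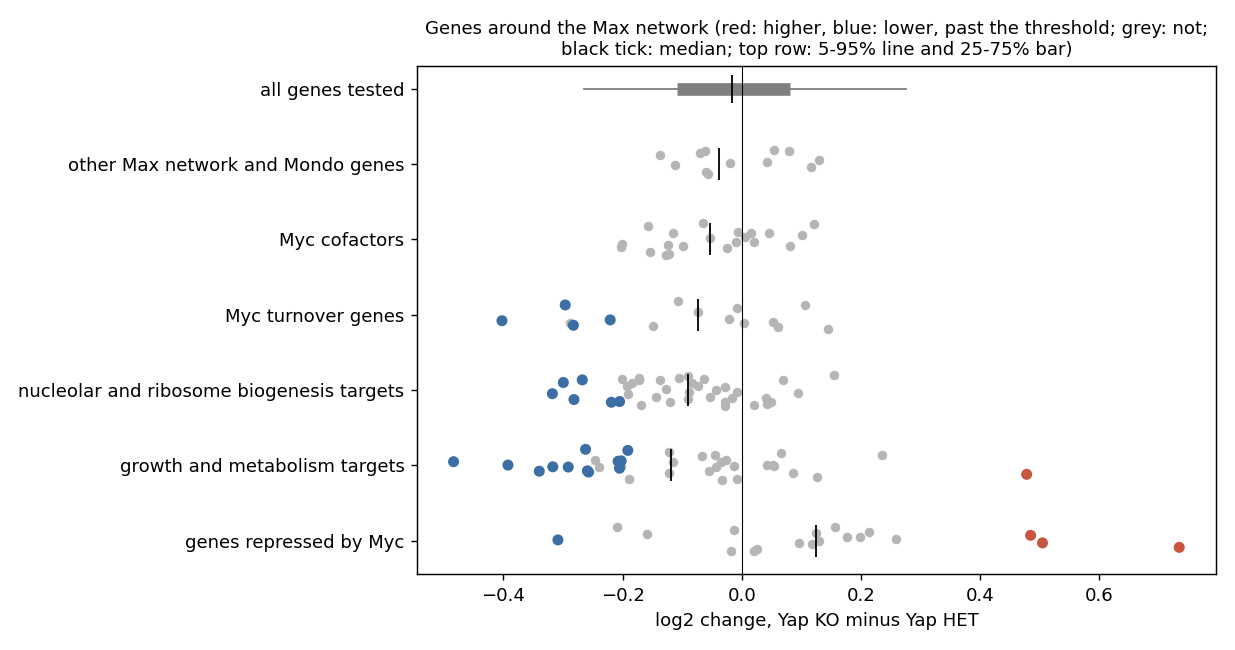
Log2 change, Yap KO minus Yap HET, of each tested gene in 6 lists around the Max network, with all genes tested in the top row. The growth and metabolism list has 12 genes past the threshold on the lower side and 1 on the higher. The nucleolar list has 6 and 0, the turnover list 4 and 0, and the lists of related genes (labelled other Max network and Mondo genes) and of cofactors 0.

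Some markers of other cell types also differed between the groups. Of all genes tested, 5.16% were higher and 4.76% lower past the threshold, and 33.9% had groups that did not overlap. At an unadjusted p under 0.05 the shares were 13.9% higher and 14.4% lower. Of 12 cardiomyocyte markers 0 were past the threshold in limma, with 2 lower and 0 higher at an unadjusted p under 0.05, and their summed intensity was 84581 to 85799 in Yap HET and 83574 to 85350 in Yap KO. Of 9 tested endothelial and endocardial markers 2 rose and 1 fell. Kdr rose by 0.76 ± 0.05 and Nfatc1 by 0.31 ± 0.08, and Npr3 fell by 0.34 ± 0.06 on the log2 scale, with a sum of all 10 listed of 1545 to 1640 in Yap HET and 1796 to 1913 in Yap KO. Of 10 markers of mesenchyme, epicardium and fibroblasts, Pdgfra (0.98 ± 0.10), Tcf21 (0.93 ± 0.17) and Postn (0.72 ± 0.13) rose and 0 fell past the threshold. At an unadjusted p under 0.05, 5 were higher and 2 were lower, the epicardial genes Upk3b (-0.68 ± 0.19) and Tbx18 (-0.37 ± 0.14), whose groups did not overlap. The summed intensity was 6067 to 6464 in Yap HET and 6627 to 8604 in Yap KO. The call of Nfatc1 was lost when any array but KO 1 was omitted, that of Npr3 when HET 1 was, that of Tcf21 when HET 1 or KO 3 was, and that of Postn when KO 2 was. Of 4 tested myeloid markers Lyz2 rose (0.47 ± 0.11), a call lost when any array but HET 2 was omitted. The other three, Cd68 (-0.72 ± 0.20), Csf1r (-0.21 ± 0.07) and Ptprc (-0.17 ± 0.05), had lower values with groups that did not overlap but were not past the threshold. The median of the 4 was -0.19, and the sum of all 8 listed was 1750 to 2052 in Yap HET and 1799 to 2011 in Yap KO. Erythroid markers (6 tested, 0 called) summed to 540.4 to 930.8 in Yap HET and 661.8 to 2834 in Yap KO. Their median log2 change was 0.34, and 5 of the 6 had a change above 0. Embryonic globin Hbb-y read 232, 27.1 and 19.8 in Yap HET and 1295, 450 and 86.3 in Yap KO, and the groups overlapped. Neural markers (2 tested, 0 called) summed to 768.8 to 854.4 and 791.2 to 836.4. Not tested were 1 endothelial, 2 erythroid, 4 myeloid and 6 neural markers, with no single-symbol probe set or a level under the filter. The part of other cells in the levels of Myc, Mycn and Mxi1 was not tested. With KO 1 omitted, the log2 changes of Mycn, Myc and Mxi1 were -0.49, 0.28 and 0.24. With KO 2 omitted they were -0.46, 0.32 and 0.26. Each omission left other arrays with globin signal in the fit.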

How the data were processed

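Intensities of 35556 probe sets were deposited by the authors for 6 arrays on a linear scale, from 2e-05 to 15701. RMA is named, with no version, per the submitters' processing notes. It gives log2 values, and how the linear scale arose is not stated. Names came from GEO's platform annotation (21789 with 1 symbol, 1621 with several, 12146 with none), and symbols were updated through Entrez identifiers in RefSeq (GRCm38.p6), which matched 21698. Each of the 19938 genes was read from its brightest probe set by mean log2 intensity, and genes under the 40th percentile, an intensity of 85.7, were left out, leaving 13632. No detection call was used. The number of arrays limits the precision.

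Log2 intensities were fitted with limma 3.58.1 (lmFit, then eBayes; R 4.3.3) with the group as the only term, and p-values were adjusted by the Benjamini-Hochberg method over all 13632 genes. The design text describes the replicates as biological. The median intensity of an array lay between 128 and 140. On simulated data with 13632 genes and independent noise, changes of 0.25, 0.5, 1 and 2 on the log2 scale were recovered in 16%, 90%, 98% and 100% of cases. That fit made 158 calls, 6 of them false, against 1353 calls in the real data. With fewer changed genes the adjusted threshold is stricter, so these shares need not hold for the real arrays. The members and lists were chosen with earlier results of these data known. The text names all members, Yap1, up to 6 called genes a list and direction (the 3 with the smallest p where none was called), 5 pattern neighbours each for Myc and Mycn and up to 4 called markers a list. Cad, Umps, Gart, Paics, Atic, Fos, Egr1, Nr4a1, Pvt1, Hbb-y, Cd68, Csf1r, Ptprc, Upk3b and Tbx18 are named beyond this rule, with their values already known. Of the listed genes, 10 outside the marker lists had no single-symbol probe set and were not tested. The alternatives were other filters, normalizations, priors, offset and probe set rule, the replicate number as a block and each array left out.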

Additional observations from a re-analysis of the deposited data

How the results depend on the processing

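The count of all genes called, 1353, was 433 to 1375 when an array was left out, 508 with no filter, 698 with the replicate block and 2246 with a trended and robust prior. The members stayed at 1 lower, and the 2 higher became 1 with no filter or the replicate block and 1 to 2 with an array left out. Mycn and Myc were past the threshold under all 15 alternatives, which reuse the same arrays and are no independent support. Mxd1, not called, ranged from -0.03 to 0.06 with an array left out and changed sign when HET 2 (-0.02), KO 2 (-0.03) or KO 3 (-0.01) was omitted.

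The growth and metabolism list had 12 falls and 1 rise. The falls were 4 with no filter, 5 with the replicate block, 10 with median centring and 3 to 7 with an array left out. They were 13 with the offset of 16, 14 with cyclic loess and 15 with quantile normalization. With the 60th percentile filter there were 16 falls, and with the trended prior 17. The rises were 0 with no filter, 2 with the trended prior and 0 to 1 with an array left out. The nucleolar list had 6 falls, which were 2 with no filter, 1 with the replicate block, 10 with the 60th percentile filter or the trended prior, 11 with cyclic loess, 12 with quantile normalization and 0 to 5 with an array left out. The turnover list had 4 falls, which were 0 with no filter, 1 with the replicate block and 0 to 4 with an array left out. The turnover falls were 3 with median centring and 5 with the 60th percentile filter, cyclic loess, quantile normalization or the trended prior. The cofactor list had 0 calls, which were 2 falls with the 60th percentile filter, cyclic loess or quantile normalization, 1 fall with an offset of 16, 3 falls and 1 rise with the trended prior and 0 whichever array was left out. Of the repressed genes, 3 rose and 1 fell. There were 5 rises with the trended prior, 0 falls with no filter or the replicate block, and 2 falls with the 60th percentile filter, cyclic loess, quantile normalization, the offset of 16 or the trended prior. With an array left out there were 2 to 5 rises and 0 to 1 falls. The list of related genes, from Mga to the Mondo targets, had 0 calls under all 15 alternatives. The causes were not tested, beyond the fewer arrays or the different number of genes tested.

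Whether same-numbered arrays were paired is not stated in the sources used here. Deviations of same-numbered arrays correlated at -0.0765, -0.171 and 0.124, within the range of the other pairs, -0.232 to 0.278. With so few arrays these values cannot exclude a pairing, so the replicate block is given only as an alternative.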
